A study of Mus musculus with 2 samples.

Results

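Genes that build, check and pull apart mitotic chromosomes were followed in 2 areas of the embryonic mouse brain. The 48 members were chosen by symbol, from a list that covers chromosome structure and condensin, the chromosomal passenger complex, the spindle checkpoint, the inner and the outer kinetochore, mitotic kinases and spindle factors, cytokinesis, and anaphase with mitotic exit. All 48 symbols were found among the 24411 genes of the count tables, and the rule that names them uses no measured value. The tissue was fresh-frozen mouse brain at embryonic day 16.5, with no treatment or mutation in the labels and with strain and number of embryos not given in the sources used here. Pieces of the subventricular zone (SVZ) and of the cortex were cut from stained sections by laser capture microdissection and measured by bulk RNA-seq, with 1 library per area. The areas were outlined to match those lit in the study's light-directed barcoding experiment, from a slide next to it. With 1 library per area no difference below has a replicate check, no test between areas was possible, and each interval given is an exact 95% Clopper-Pearson interval of read counts, which covers counting error only.

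In mitosis, condensin and topoisomerase II fold the copied chromosomes into compact rods, and each centromere, marked by the histone variant Cenpa, assembles a kinetochore. Its inner layer sits on centromeric chromatin, and its outer layer, with the Ndc80 complex at its centre, holds spindle microtubules. The spindle checkpoint delays anaphase until all kinetochores are attached, the chromosomal passenger complex corrects faulty attachments, and the anaphase-promoting complex then marks securin and cyclins for destruction. In the developing cerebral wall, apical progenitors divide at the ventricle and intermediate progenitors divide in the SVZ, while the neurons that leave them are postmitotic. Transcripts of many mitotic genes build up in G2 and M phase, and their promoters often carry a CCAAT box, the element bound by NF-Y, and a cell cycle genes homology region (CHR), a short element bound by the MuvB complexes.

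The promoters of 3 members are shown because these carry a sequence feature found in 27 of the 41 members with a listed promoter. The 3 are the members with the most SVZ reads among those whose promoter holds the CHR letters TTTGAA. The sequences run from 250 bases before to 50 bases after the RefSeq start of transcription, 5′ to 3′ on the gene's strand (RefSeq, GRCm38.p6). Capitals mark TTTGAA and CCAAT, read on either strand, so that TTCAAA and ATTGG are the same letters on the other strand.
Hmgb2 promoter, chr8:57511593-57511892, plus strand: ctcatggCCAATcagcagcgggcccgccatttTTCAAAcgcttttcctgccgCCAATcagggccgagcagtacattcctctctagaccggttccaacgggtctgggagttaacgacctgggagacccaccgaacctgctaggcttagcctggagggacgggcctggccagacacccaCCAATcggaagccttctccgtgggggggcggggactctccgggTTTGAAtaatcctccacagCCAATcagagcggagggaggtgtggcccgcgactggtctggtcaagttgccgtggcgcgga
Top2a promoter, chr11:99024140-99024439, minus strand: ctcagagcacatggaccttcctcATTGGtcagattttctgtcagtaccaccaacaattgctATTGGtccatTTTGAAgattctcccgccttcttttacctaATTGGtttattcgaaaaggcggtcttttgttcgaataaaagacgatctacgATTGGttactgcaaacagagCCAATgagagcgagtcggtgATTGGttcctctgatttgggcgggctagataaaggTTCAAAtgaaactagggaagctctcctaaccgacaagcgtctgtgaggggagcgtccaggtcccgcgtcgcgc
Bub3 promoter, chr7:131560120-131560419, plus strand: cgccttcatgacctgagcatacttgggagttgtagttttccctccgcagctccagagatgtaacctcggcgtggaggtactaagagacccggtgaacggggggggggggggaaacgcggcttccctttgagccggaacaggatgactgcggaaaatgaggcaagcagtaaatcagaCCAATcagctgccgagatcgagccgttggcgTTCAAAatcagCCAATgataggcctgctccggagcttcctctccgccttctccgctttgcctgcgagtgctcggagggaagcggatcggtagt
In the Hmgb2 promoter TTTGAA began 218 and 30 bases before the start, with 4 CCAAT boxes around it. Top2a held it 179 and 23 bases before the start, with 6 CCAAT boxes. The Bub3 promoter, 1 of the 2 that the table lists for this gene, held it 43 bases before the start and 2 CCAAT boxes. Hmgb2 and Top2a were among the 11 members at least 64-fold higher in the SVZ, while Bub3 was 2.06-fold higher, as given below.

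As a group, the mitotic genes were far higher in the SVZ library. The SVZ library held 51435667 gene-assigned reads and the cortex library 22050693, so that 1 read was worth 0.0194 counts per 1000000 gene-assigned reads (CPM) in the SVZ and 0.0454 CPM in the cortex. The members took 411166 SVZ reads, or 0.799% of the library (interval 0.797% to 0.802%), against 12756 cortex reads, or 0.0578% (0.0568% to 0.0589%). Their summed CPM was thus 7994 in the SVZ and 578 in the cortex, 13.8-fold apart (13.6 to 14.1). A single gene, Bub3, held 43.3% of the member reads of the cortex library, and without it, a step added after the values were seen, the summed ratio was 22.8-fold (22.3 to 23.3). In the SVZ library the reads were spread more evenly, with Hmgb2 (7.45%), Bub3 (6.46%), Top2a (6.44%), Spc25 (5.65%) and Smc4 (5.56%) in the lead.

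All 48 members passed the minimum used for counting, 1 CPM on average over the pair of libraries. In the SVZ library CPM was higher for 48 of them, against 54.9% of the 12738 genes that passed the same minimum. At least 4-fold higher in the SVZ were 45 members, against 10.2% of all genes, and for 45 the whole counting interval lay past 4-fold, against 8.16%. At least 32-fold higher were 27 members, against 2.32%. No member passed 4-fold towards the cortex, where 7.01% of all genes were. The median log2 ratio of SVZ to cortex CPM was 5.24 over the members (quartiles 3.72 and 5.94) and 0.11 over all genes (quartiles -0.56 and 0.76). Between the members the ratios were far from equal: they ran from 0.95 to 9.17, and the counting interval of only 6 members held the members' own median.

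**Figure D1:**
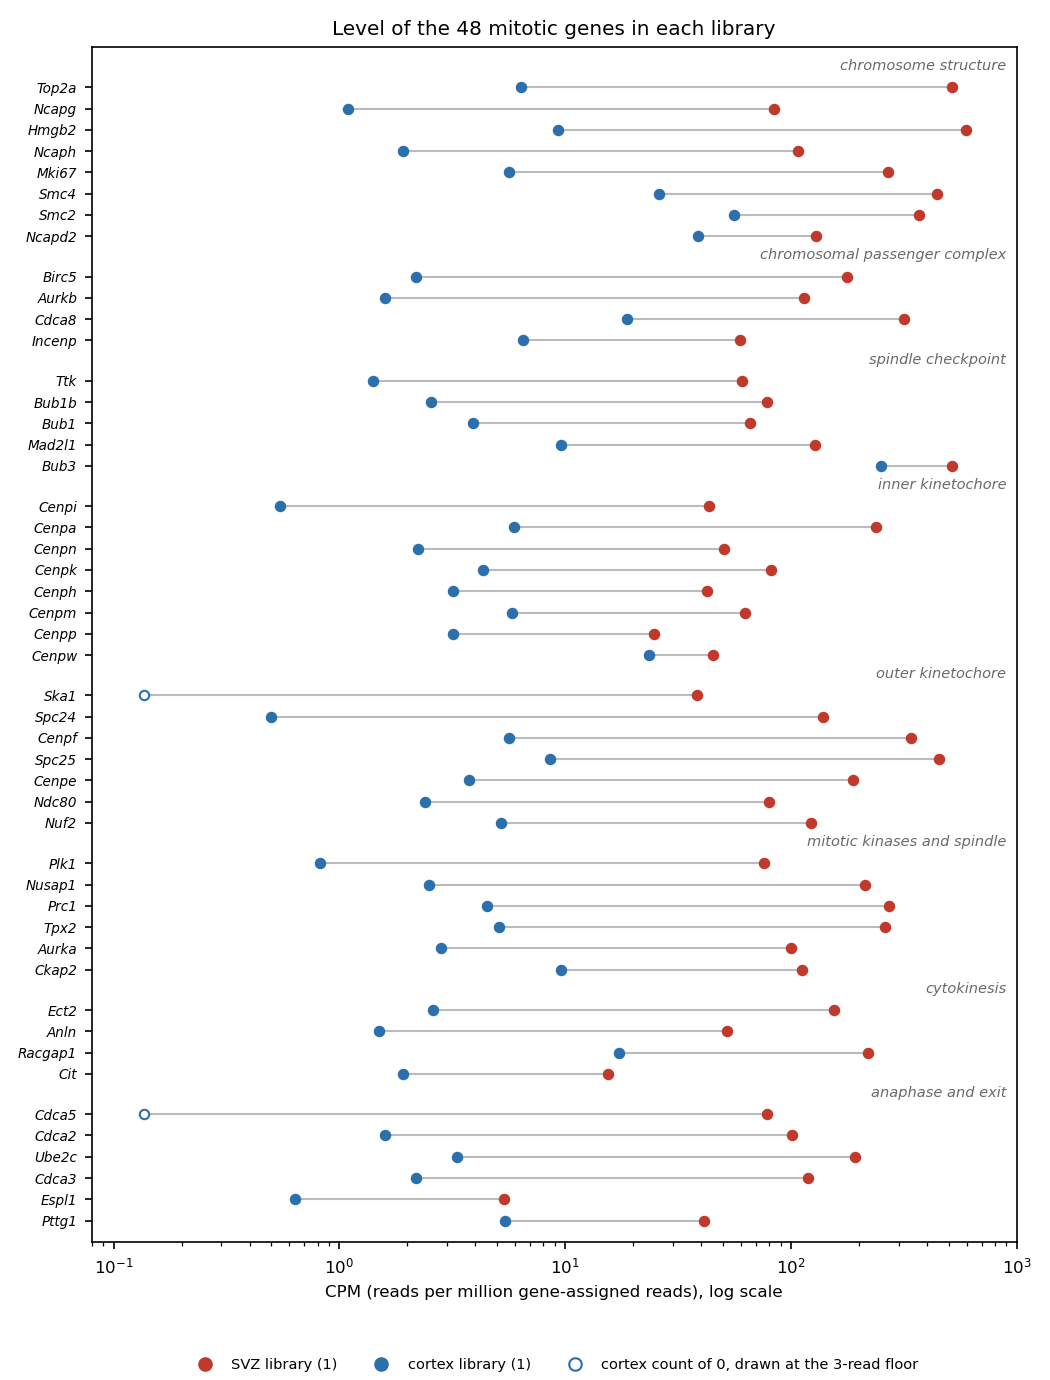
Level of each of the 48 genes in the SVZ library (red) and the cortex library (blue), in CPM on a log axis, grouped by role and ordered by ratio within each role. Each point is 1 library. All 48 red points lie to the right of their blue partner, 41 blue points lie under 10 CPM, and the open circles of Ska1 and Cdca5 mark a cortex count of 0 drawn at the floor of 3 reads (0.136 CPM).

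Levels differed in where they lay as well. In the SVZ library 47 members reached 10 CPM and 28 reached 100 CPM, whereas 41 stayed under 10 CPM in the cortex library and 6 stayed under 1 CPM. In bulk tissue, fewer cells of a type and less RNA per cell cannot be told apart, which holds for every ratio given here. Ratios of 4 to 16-fold were found for 11 members, of 16 to 32-fold for 7, of 32 to 64-fold for 16 and of at least 64-fold for 11. Beside these, 10.2% of all genes were at least 4-fold and 2.32% at least 32-fold higher in the SVZ. Shares over all genes were not computed for the 16-fold and 64-fold steps or for the CPM levels. The 11 members past 64-fold include Ncapg, whose ratio holds for the unstranded count alone.

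**Figure D2:**
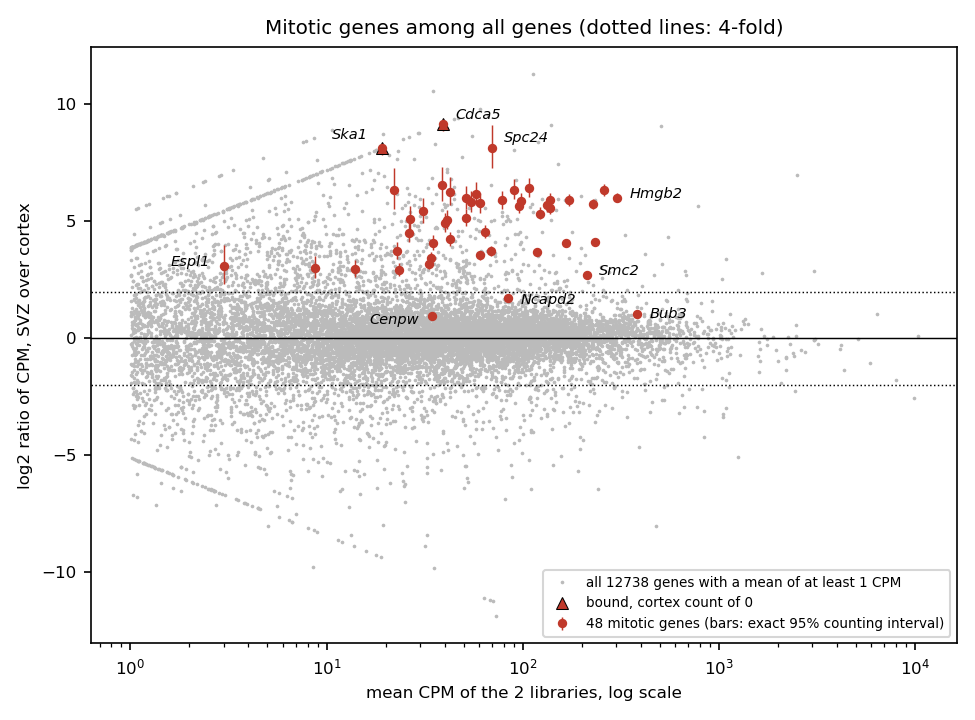
Log2 ratio of SVZ to cortex CPM (vertical) against the mean CPM of the libraries (horizontal, log scale) for all 12738 genes past the minimum of 1 CPM (grey) and the 48 mitotic genes (red, with exact 95% counting intervals). Triangles mark bounds set by a cortex count of 0, dotted lines mark 4-fold, and all red points but Ncapd2, Bub3 and Cenpw lie above the upper dotted line.

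Genes of chromosome structure came to a median log2 ratio of 5.70 over 8 members, 7 of them at least 4-fold higher in the SVZ. Mki67, whose protein coats mitotic chromosomes and is the usual histological marker of cycling cells (GRCm38 chromosome 7, 135689784 to 135716361), was read 13865 times in the SVZ and 124 times in the cortex, which gave a log2 ratio of 5.58 (5.33 to 5.85). Top2a, the topoisomerase that untangles sister DNA (chromosome 11, 98992943 to 99024189), had 26475 and 141 reads and a ratio of 6.33 (6.09 to 6.58). Hmgb2, a DNA-bending chromatin protein of proliferating cells (chromosome 8, 57511907 to 57515999), had 30616 and 204 reads, or 595 and 9.25 CPM, and a ratio of 6.01 (5.81 to 6.21). The 3 genes were 47.9-fold, 80.5-fold and 64.3-fold higher in the SVZ, and the intervals of Mki67 and Hmgb2 only just met.

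The subunits of condensin I, a ring that works with its parts bound together, did not share a ratio. Its ATPase arms Smc2 and Smc4 had 18939 and 22859 SVZ reads and 1240 and 573 cortex reads, and were 6.55-fold and 17.1-fold higher in the SVZ. The regulatory subunits went further apart. Ncapd2 had 6637 SVZ reads and 857 cortex reads and was 3.32-fold higher (log2 1.73, 1.63 to 1.84), Ncaph had 5531 and 42 reads and was 56.5-fold higher, and Ncapg had 4317 and 24 reads and was 77.1-fold higher (log2 6.27, 5.69 to 6.91). None of the intervals of Ncapd2, Smc2 and Smc4 overlapped one another or those of Ncaph and Ncapg, while those of Ncaph and Ncapg overlapped. The Ncapg value holds for the unstranded count alone. Ncapg shares exons on the opposite strand with Lcorl, reads in both genes are left out of that count, and the sum of the strand-specific counts added 1395 SVZ and 533 cortex reads, which brought the log2 ratio to 2.13. Which of the 2 genes gave those reads was not determined, since that sum gives a shared read to both genes. Lcorl thus gained almost the same numbers, and 2.13 is the value with all these reads given to Ncapg.

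Set against each other per exon length, the condensin I subunits were closer in the SVZ than in the cortex. In reads per kb of exon per 1000000 gene-assigned reads (RPKM, over all exons of the GENCODE M21 basic set), they ran from 22.7 (Ncapg) to 103 (Smc4) in the SVZ, a 4.54-fold range. In the cortex the range was 35.4-fold, from 0.294 (Ncapg) to 10.4 (Smc2), with Ncapd2 at 8.40, Smc4 at 6.02 and Ncaph at 0.707. Without Ncapg, whose count leaves out the shared reads, the ranges were 3.69-fold in the SVZ and 14.7-fold in the cortex. Smc2 and Smc4 also serve condensin II, which uses other regulatory subunits, so their reads cannot be assigned to either complex. Of those subunits, named here after their values were seen, Ncapg2 was 7.00-fold, Ncapd3 2.76-fold and Ncaph2 1.61-fold higher in the SVZ.

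The chromosomal passenger complex was past 4-fold towards the SVZ with all 4 genes, with a median log2 ratio of 5.12. Aurkb, its kinase, had 5892 SVZ and 35 cortex reads (log2 6.17, 5.70 to 6.70). Birc5 (survivin), which brings the complex to centromeres, had 9162 and 48 reads (6.35, 5.95 to 6.80). Cdca8 (borealin) had 16237 and 416 reads (4.06, 3.92 to 4.21), and Incenp, the scaffold that activates the kinase, had 3074 and 144 reads (3.19, 2.95 to 3.45). Aurkb and Birc5 formed a pair with overlapping intervals, well above Cdca8, and Incenp lay below all of them. Per length, Cdca8 was the highest of the 4 in both libraries, at 168 RPKM in the SVZ and 10.1 in the cortex, against 18.4 and 2.01 for Incenp and 58.6 and 0.812 for Aurkb.

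**Figure D3:**
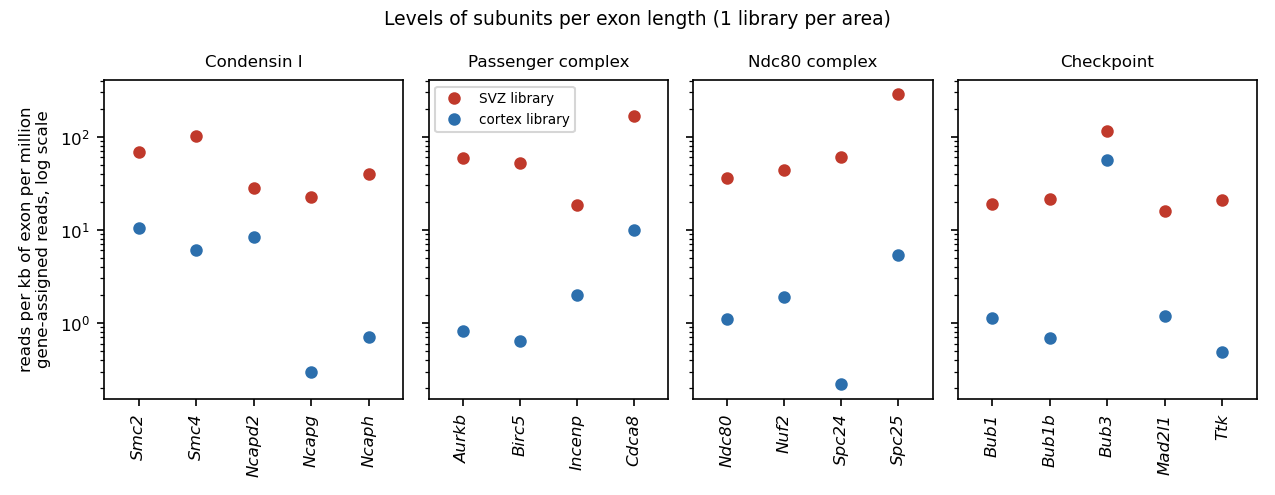
Levels of the subunits of condensin I, the passenger complex, the Ndc80 complex and the spindle checkpoint in the SVZ library (red) and the cortex library (blue), in reads per kb of exon per 1000000 gene-assigned reads on a log axis. Each point is 1 library. Within each complex the blue points spread further than the red ones, most in the checkpoint, where the cortex values run from 0.484 (Ttk) to 55.8 (Bub3).

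The spindle checkpoint had the widest split in the cortex. Bub3, a WD-repeat adaptor that docks the Bub kinases at kinetochores and also takes part in RNA splicing outside mitosis (chromosome 7, 131560222 to 131571895), was read 26559 times in the SVZ and 5517 times in the cortex, or 516 and 250 CPM. It was 2.06-fold higher in the SVZ (log2 1.05, 1.00 to 1.09). The 4 other checkpoint members were all at least 4-fold higher. Mad2l1 (Mad2), the inhibitor that binds Cdc20, had 6587 and 212 reads, a log2 ratio of 3.74. The kinase Bub1 had 3374 and 86 reads (4.07), its relative Bub1b (BubR1) had 4011 and 56 reads (4.94), and Ttk (Mps1), the kinase that starts the signal, had 3124 and 31 reads (5.43, 4.92 to 5.99). Bub3 stood apart from its partners in both libraries, and further in the cortex. Per length it read 115 in the SVZ, where the other 4 lay between 15.9 and 21.3, and 55.8 in the cortex, where they lay between 0.484 and 1.20. The value of Mad2l1 is lowered by an annotated exon set of 8.03 kb.

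Inner kinetochore genes had the lowest median of the 8 role groups, at a log2 ratio of 3.99, with 7 of 8 members at least 4-fold higher in the SVZ. Cenpa, the histone H3 variant of centromeres, had 12296 SVZ and 131 cortex reads (5.33, 5.08 to 5.59), and per length it was the highest of the group in the SVZ, at 146 RPKM. The other members belong to the constitutive network that rests on Cenpa nucleosomes. Cenpi had 2232 and 12 reads (6.32, 5.51 to 7.27), Cenpn 2605 and 49 (4.51), Cenpk 4182 and 95 (4.24), Cenph 2190 and 70 (3.75), Cenpm 3215 and 128 (3.43), and Cenpp 1272 and 70 (2.96). Cenph, Cenpi, Cenpk and Cenpm bind one another in a subcomplex, and among them the ratio ran from 10.8-fold for Cenpm to 79.7-fold for Cenpi. Cenpk shares exons with Ppwd1 on the other strand. The sum of the strand-specific counts, which gives a shared read to both genes, added 341 SVZ and 92 cortex reads. With all of these its log2 ratio was 3.37.

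Cenpw, a histone-fold partner of Cenpt in the same network (chromosome 10, 30194569 to 30200560), was the least different member. It had 2333 SVZ and 518 cortex reads, or 45.4 and 23.5 CPM, which put it 1.93-fold higher in the SVZ (log2 0.95, 0.81 to 1.09). Its interval overlapped that of Bub3 and no other member's. Cenpw lay under the median member level of 113 CPM in the SVZ and above the median of 3.54 CPM in the cortex, where it took 4.06% of the member reads.

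At the outer kinetochore all 7 members were at least 4-fold higher in the SVZ, the lowest 23.5-fold, and the median log2 ratio was 5.73. Within the Ndc80 complex, the rod that grips the microtubule, Ndc80 had 4132 SVZ and 53 cortex reads (5.06) and Nuf2 had 6310 and 115 (4.56). At the other end of the rod, which faces the inner kinetochore, Spc25 had 23217 and 188 reads (5.73, 5.52 to 5.94) and Spc24 had 7121 and 11 (8.12, 7.28 to 9.12; chromosome 9, 21755442 to 21760303). Spc24 and Spc25 form a dimer, yet their intervals did not meet. Per length, Spc25 read 285 RPKM in the SVZ and 5.38 in the cortex, and Spc24 60.6 and 0.219, so that the complex spread 7.80-fold in the SVZ and 24.6-fold in the cortex. The kinesin Cenpe had 9717 and 83 reads (5.65), and Cenpf, a large protein of the fibrous corona, had 17446 and 124 (5.91). Ska1, whose complex tracks microtubule ends (chromosome 18, 74195299 to 74207818), had 1975 SVZ reads and none in the cortex. The floor of 3 reads puts its SVZ level at least 282-fold higher, and the exact interval, which allows more reads for a count of 0, has its lower limit at a log2 ratio of 7.84.

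Mitotic kinases and spindle factors had a median log2 ratio of 5.80, with 6 of 6 members at least 4-fold higher. Plk1, a kinase needed from mitotic entry to cytokinesis, had 3929 SVZ and 18 cortex reads (6.55, 5.89 to 7.30), and Aurka, the centrosomal Aurora kinase, had 5151 and 62 (5.15). Tpx2, which activates Aurka on the spindle, had 13410 and 112 reads (5.68). Nusap1, a microtubule bundler, had 10984 and 55 (6.42), and Prc1, which bundles the antiparallel microtubules of the midzone, had 13989 and 99 (5.92). Ckap2, a spindle protein, was the lowest of the 6 at 5744 and 211 reads (3.54, 3.35 to 3.75), and its interval was clear of the other 5. Aurka and Tpx2, an enzyme and its activator, were 35.6-fold and 51.3-fold higher.

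For cytokinesis the median log2 ratio was 4.40 over 4 members, all at least 4-fold higher. Ect2, the exchange factor that turns on RhoA at the cleavage plane, had 7975 SVZ and 57 cortex reads (5.91, 5.53 to 6.31). Its binding partner Racgap1, a part of centralspindlin, had 11346 and 381 (3.67, 3.53 to 3.83), so that the pair differed by more than counting error, 60.0-fold against 12.8-fold. Anln, a scaffold of the contractile ring, had 2672 and 33 reads (5.12). Cit, the citron kinase gene, which also makes a shorter neuronal form without the kinase domain, had 797 and 42 (3.02, 2.58 to 3.51), and the count does not separate the forms.

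Anaphase and mitotic exit held the highest and some of the lowest ratios. Cdca5 (sororin), which keeps cohesin on chromatin until anaphase (chromosome 19, 6084983 to 6091777), had 4035 SVZ reads and none in the cortex, at least 577-fold higher against the 3-read floor, with the lower limit of the exact interval at a log2 ratio of 8.87. Ube2c, the ubiquitin-conjugating enzyme of the anaphase-promoting complex, had 9895 and 73 reads (5.86). Cdca3, which takes part in the destruction of the mitotic inhibitor Wee1, had 6122 and 48 (5.77), and Cdca2, a phosphatase-targeting protein of anaphase chromatin, had 5215 and 35 (6.00). The securin Pttg1 had 2123 and 119 reads (2.94, 2.67 to 3.21). Its target Espl1, the separase that cuts cohesin, was the least read member, with 277 and 14 reads, or 5.39 and 0.635 CPM (3.08, 2.31 to 3.97). The inhibitor and its protease thus overlapped, at 7.65-fold and 8.48-fold, and both lay below the other 4 genes of the group.

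The rest of the pathway was read from 80 partner genes of the same complexes and steps, without kinesins. Of these, 29 were at least 4-fold higher in the SVZ, against 10.2% of all genes, and none in the cortex, against 7.01%. Within 2-fold lay 37 partners, as did 8199 of all 12738 genes. The median log2 ratio of the partners was 1.17 (quartiles 0.50 and 3.77). Of the partners, 73 were higher in the SVZ, against 54.9% of all genes, and 7 in the cortex. The highest were Cep55, the abscission scaffold, with 3015 SVZ reads and none in the cortex (at least 431-fold), Spag5 (astrin), with 2537 and none (at least 363-fold), and Dlgap5, with 2851 and 6 (log2 7.67, 6.55 to 9.12). The lowest were Cenpb, which binds the centromeric satellite box, with 644 and 555 reads (-1.01, -1.17 to -0.84), the anaphase-promoting complex activator Fzr1, with 1436 and 1169 (-0.93), and the cohesin loader Mau2, with 3917 and 2480 (-0.56).

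Split by complex, the partners ran from near equal to as different as the members. Cohesin, the ring that holds sister chromatids and that also shapes interphase chromatin, had a median log2 ratio of 0.72 over 10 genes, none of them 4-fold apart. For the 15 genes of the anaphase-promoting complex and its regulators the median was 0.40, and the only one past 4-fold, Fbxo5 (Emi1), is its S and G2 phase inhibitor (log2 5.06, singled out after its value was seen). Shugoshins, haspin and Bora, which guard and regulate centromeres and kinases, had 4 of 4 past 4-fold (median 4.56), the Mis12 complex with Knl1 4 of 6 (4.00), and the corona genes 3 of 4 (5.12). The inner kinetochore and Cenpa loading partners had 6 of 13 (1.93) and the spindle partners 7 of 17 (1.54). Among the 6 was Cenpo, named after its values were seen, with 748 SVZ and 45 cortex reads (2.83). To these the sum of the strand-specific counts added 683 and 316 reads, so 2.83 holds for the unstranded count alone. Some kinetochore partners had low ratios beside others of their complex, as Bub3 and Cenpw did, in examples taken after their values were seen. Zwint, a Knl1 partner also known from neurons, had 34602 SVZ and 13270 cortex reads and was near equal (0.16, 0.13 to 0.19). Mis12 had 3623 and 821 reads and was 1.89-fold higher in the SVZ (0.92). Dsn1 of the Mis12 complex had 2312 and 14 (6.15). Chosen in the same way, Ska3 was 71.6-fold and Ska2 1.80-fold higher in the SVZ, beside the bound of 282-fold for Ska1.

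**Figure D4:**
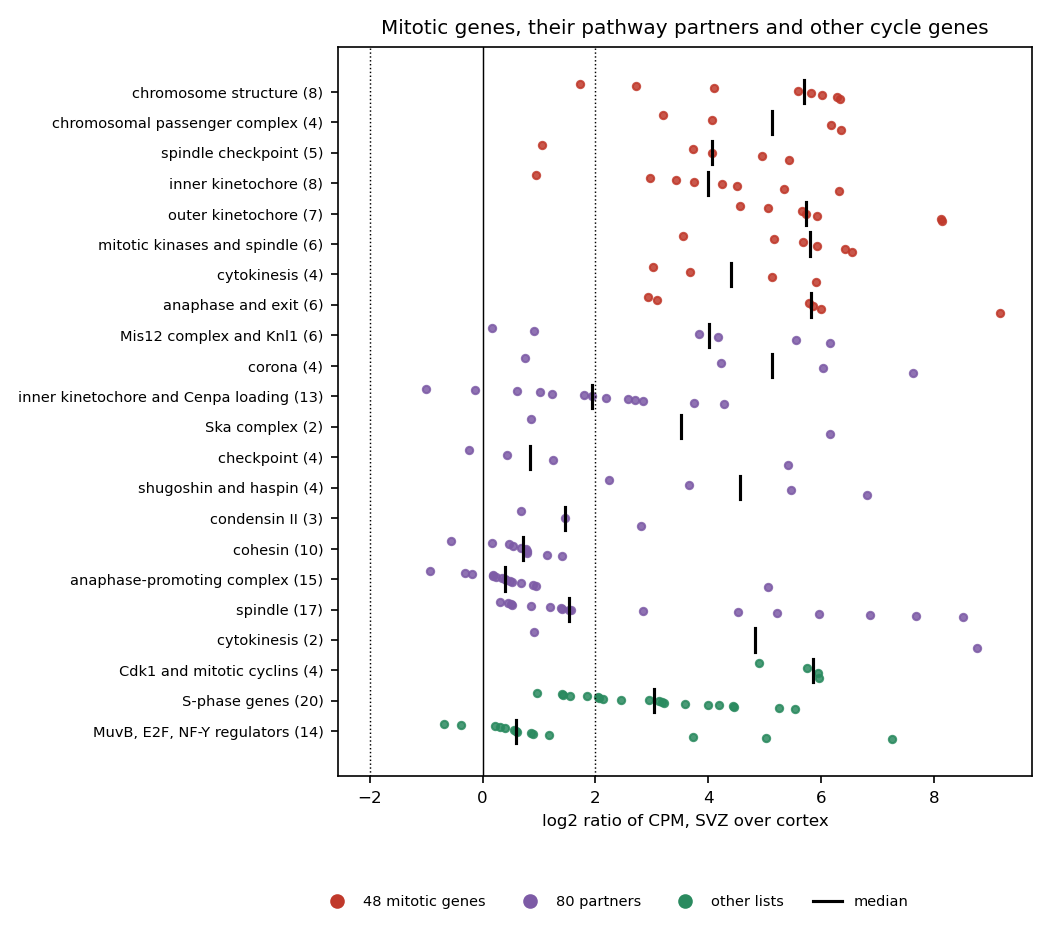
Log2 ratio of SVZ to cortex CPM for each gene (points) of the mitotic role groups (red), the partner groups (purple) and the comparison lists (green), with the median of each group as a black bar and the number of genes in brackets. The solid line marks equal CPM and the dotted lines 4-fold, a cortex count of 0 is drawn at its bound, and the medians of the red groups (3.99 to 5.82) lie to the right of those of cohesin (0.72) and of the anaphase-promoting complex (0.40).

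Other cell cycle genes gave a scale for these values. Cdk1 and the cyclins Ccna2, Ccnb1 and Ccnb2, the engine of mitotic entry, were 4 of 4 past 4-fold, with log2 ratios of 4.89 to 5.95 and a median of 5.85. The lowest, Ccna2, had 7908 SVZ and 114 cortex reads in the unstranded count. The sum of the strand-specific counts added 3920 and 465 to these, so its 4.89 holds for the unstranded count alone. Among 20 S-phase genes, which copy the DNA or supply nucleotides, 20 were higher in the SVZ, against 54.9% of all genes. Of the 20, 15 were past 4-fold, against 10.2% of all genes. The S-phase median was 3.03, with a range of 0.97 to 5.54. The highest were Cdc6 (5.54), Mcm3 (5.24) and Gins2 (4.46), and the lowest were Mcm7 (0.97), Rfc2 (1.41) and Chaf1b (1.43). The Gins2 value holds for the unstranded count alone, with 2714 SVZ and 53 cortex reads. To these the sum of the strand-specific counts added 711 and 152. A list of 14 genes held factors known from cell cycle promoters, whose action on the members was not tested. Of these, 3 were past 4-fold, against 10.2% of all genes, and the median was 0.60. Foxm1, the forkhead activator of G2 and M genes, had 1068 SVZ and 3 cortex reads (7.25, 5.70 to 9.53), Mybl2 (B-Myb), the partner of MuvB in cycling cells, had 301 and 4 (5.01, 3.64 to 6.90), and the pocket protein gene Rbl1 had 2758 and 89 (3.73). Nfya (-0.68), Rbl2 (-0.39) and Nfyc (0.22), the lowest, were within 2-fold of equal.

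Markers of the areas and of other cells were read from lists for each type. All 8 apical progenitor genes were past 4-fold towards the SVZ (summed 6529 against 130 CPM), as were the 3 intermediate progenitor genes (473 against 13.4 CPM), with Fabp7 at 255784 SVZ and 861 cortex reads and Eomes at 11659 and 2 as the most read of their lists. All 8 neuron genes were higher in the cortex, though the SVZ library also held them at a summed 3171 CPM against 8543, and Neurod6, the most read, had 81883 SVZ and 61678 cortex reads. Among other types, 5 of 5 microglial genes were higher in the SVZ (34.6 against 3.85 CPM, led by C1qb with 752 and 16 reads), and of 3 choroid plexus genes Ttr had 12363 and 16 reads, Folr1 141 and 0, and Kl none in either library (243 against 0.726 CPM). The 5 endothelial genes, led by Cldn5 with 1921 and 450 reads, summed to 64.4 and 55.6 CPM in SVZ and cortex. The 5 erythroid genes, led by Alas2 with 761 and 165 reads and with Hba-a1 and Hbb-bt at 0 in both, summed to 20.4 and 10.9 CPM. The 3 oligodendrocyte precursor genes, led by Pdgfra (302 and 142 reads), summed to 7.52 and 8.07 CPM, and the 4 ventral progenitor genes, led by Dlx1 (1399 and 267 reads), to 66.5 and 20.7 CPM. The part of these cells in the mitotic ratios was not tested.

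Most of the members with a listed promoter shared a sequence feature that the rule naming them did not use. The RefSeq table held 46 promoters for 41 of the 48 members, with Smc4, Aurkb, Incenp, Spc24, Ska1, Tpx2 and Cdca2 not in it. TTTGAA, searched on both strands of the 300-base window, was in 30 of 46 member promoters (65.2%), which belong to 27 genes, against 17.9% of all 32851 promoters in the table. Promoters of the other genes past the 1 CPM minimum held it in 11.4% of 12426 promoters, and the other genes past 4-fold towards the SVZ held it in 16.4% of 1201. CCAAT, the NF-Y letters, was in 35 member promoters (76.1%) against 37.4% of all. Both were in 27 (58.7%) against 6.95%. A match of TTTGAA and a match of CCAAT can share no more than an end base. Promoters of 1 gene can overlap each other, and a match is a description of letters, not a binding site.

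The other sequences searched, each on both strands, were found in fewer member promoters. TTCGAA and TTTAAA, CHR variants, were in 4 (8.70%, against 1.56% of all) and 7 member promoters (15.2% against 13.2%). TTCCCGC, an E2F core, was in 5 (10.9% against 4.60%). Among promoters of other genes, TTCCCGC was in 8.30% past the 1 CPM minimum and in 9.49% past 4-fold towards the SVZ. S-phase genes held it in 9 of 20 promoters (45.0%). Position set TTTGAA apart further. It began in the 50 bases before the start in 11 member promoters (23.9%, against 2.82% of all) and in the 50 bases from the start onward in 15 (32.6% against 2.25%). CCAAT began between 100 and 51 bases before the start in 34.8% of member promoters, against 12.5% of all. It began in the 50 bases before the start in 41.3%, against 9.03%. From the start onward it began in 8.70%, against 5.22%. The order of TTTGAA and CCAAT within a promoter was not compared.

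**Figure D5:**
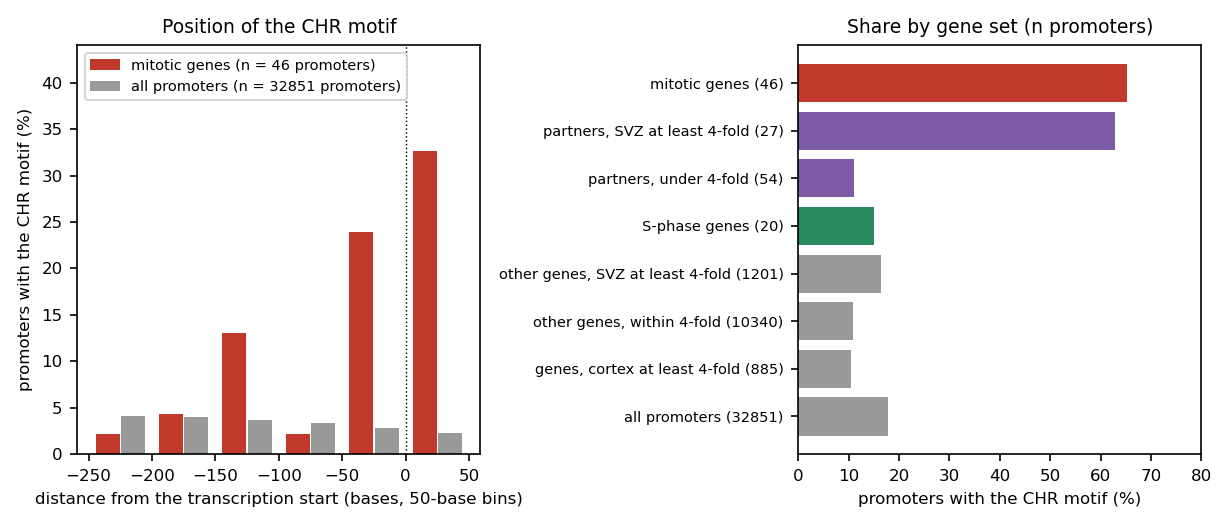
Left, share of promoters (percent) with the CHR letters in each 50-base bin of distance from the transcription start, for 46 promoters of mitotic genes (red) and all 32851 promoters (grey). Right, share of promoters with the letters anywhere in the window by gene set, with the number of promoters in brackets. Mitotic genes (65.2%) and partners at least 4-fold higher in the SVZ (63.0%) stand above partners under 4-fold (11.1%), S-phase genes (15.0%) and all promoters (17.9%).

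Among the partners the share with TTTGAA differed with the ratio. TTTGAA was in 17 of 27 promoters (63.0%) of partners at least 4-fold higher in the SVZ and in 6 of 54 (11.1%) of those under 4-fold. On the given strand alone these shares were 25.9% and 7.41%, beside 47.8% for the members, so that the partners came close to the members only where both strands were read. CCAAT was in 66.7% and 42.6% of the promoters of these partner sets, TTCCCGC in 22.2% and 20.4%, and TTCGAA, in the other direction, in 3.70% and 11.1%. S-phase genes held TTTGAA in 3 of 20 promoters (15.0%) and CCAAT in 14 (70.0%). Among the members only 3 lay under 4-fold, too few to be split in the same way. The 27 members with TTTGAA had a median log2 ratio of 5.33 (range 0.95 to 9.17) and the 14 without it 4.16 (2.94 to 6.42), and the 3 members under 4-fold, Bub3, Cenpw and Ncapd2, all held both TTTGAA and CCAAT, as the Bub3 sequence above shows. Birc5 and Nusap1, with ratios of 6.35 and 6.42, had no TTTGAA in this window, which says nothing of the factors that act on them. The Birc5 promoter held the CHR variant TTTAAA, and the Nusap1 promoter held neither TTTAAA nor TTCGAA.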

How the data were processed

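Laser-captured pieces of SVZ and cortex gave 1 RNA-seq library each. Per the study's methods, RNA from stained cryosections was amplified with a low-input cDNA kit and sequenced as paired ends. Adapters were trimmed with cutadapt 4.1 and read 1 alone was mapped to mm10 (GRCm38) with STAR 2.7.9a, which also made the gene counts. These deposited counts are whole and not normalized, and leave out reads that map to several places or lie in more than 1 gene, so genes with near-identical copies or overlapping neighbours are undercounted. No molecular identifiers are named in the sources used here, so PCR copies may be counted. A further deposited table of the authors' CPM and fold changes was not used.

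Unstranded counts were divided by the gene-assigned total (59.0% and 59.1% of all reads in SVZ and cortex) to give CPM, and the log2 ratio was taken on these values as they stand. Where a count was 0, 3 reads were put in its place, 0.0583 CPM in the SVZ and 0.136 CPM in the cortex, and the ratio called a bound. Genes whose CPM averaged at least 1 were counted at a threshold of 4-fold, and no p-value was computed. Exon lengths and positions came from GENCODE M21, promoters from RefSeq. Alternatives were size factors from DESeq2 1.42.0, edgeR 4.0.16 scaling by TMM or the upper quartile, totals that leave out the 10 most counted genes, summed stranded counts, a thinned SVZ library, a pseudocount, other minimums and thresholds, and other promoter windows. Procedures were tested on simulated data. The tools were Python 3.11.15 with pandas 2.3.3, scipy 1.17.1, numpy 2.4.6 and matplotlib 3.10.9, and R 4.3.3.

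The members and lists were chosen with earlier results of these data known. All members are named, and of each other list the 3 highest and 3 lowest ratios, of each marker list the most read gene and those at 0, and further genes only where the text says so.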

Additional observations from a re-analysis of the deposited data

Results flagged for a closer look

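For 3 members the sum of the strand-specific counts held more cortex reads than the unstranded count, by more than the 3 reads that a count of 0 allows. The report gives this sum only beside the unstranded values. Ncapg gained 533 cortex and 1395 SVZ reads, and its log2 ratio went from 6.27 to 2.13. The overlapping gene on the other strand, Lcorl, gained 533 and 1396. Cenpk gained 92 cortex and 341 SVZ reads, the same numbers as Ppwd1 on the other strand, and its log2 ratio went from 4.24 to 3.37. Nusap1 gained 4 cortex and 78 SVZ reads, beside 4 and 79 for Oip5, and its log2 ratio went from 6.42 to 6.33. The sum gives a shared read to both genes of a pair, so the matching gains follow from how it is formed. Which gene of each pair gave the reads was not determined.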

How the results depend on the processing

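All 48 members had the higher CPM in the SVZ under each of the 7 alternatives that gave them new values (4 scalings, stranded sum, thinned SVZ library, pseudocount). The 4 scalings moved member ratios by -0.0988 to -0.0333 on the log2 scale and the median of all genes by at most -0.0988. The count of 45 members past 4-fold was also found under each scaling, and was 44 with a pseudocount of 1 CPM, 13 of 14 at a mean of at least 100 CPM, 47 at 2-fold and 39 at 10-fold. Of the partners, 28 of 80 passed 4-fold in the stranded sum and with the pseudocount, and 3 of 20 at a mean of at least 100 CPM. With the pseudocount 933 of all 12738 genes passed 4-fold towards the SVZ, and in the stranded sum 1273. Shares over all genes were not computed for the 100 CPM, 2-fold and 10-fold rules. The median member ratio was 4.71 with the pseudocount and 5.63 among members that averaged at least 100 CPM. The summed log2 ratio of 3.79 became 3.70 with TMM or DESeq2 scaling, 3.69 with upper-quartile scaling, 3.76 without the 10 most counted genes, 3.72 in the stranded sum, 3.68 with the pseudocount and 4.51 without Bub3, the last added after the data were seen. TTTGAA was in 47.8% of member promoters on the given strand alone (10.2% of all). CCAAT was in 56.5% on the given strand (21.1% of all) and in 58.7% from 100 bases before to 50 after the start (23.4% of all). No paired analysis was possible because only 1 library was made from SVZ and 1 from cortex, and neither could be left out. By the 3-read floor a count of 0 in the cortex allows up to 0.136 CPM, which sets the bounds of Ska1 and Cdca5.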
